A study of Mus musculus with 6 samples.

Results

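The genes described here are 10 markers of endothelial identity, taken by symbol from the tables of whole mouse ovary: Pecam1, Cdh5, Cldn5, Emcn, Esam, Eng, Tie1, Egfl7, Plvap and Robo4. All 10 were found once each among the 46078 genes of every table, and all 10 passed the filter on low values that left 14535 genes to test. The ovaries came from C57BL/6 mice of 8 to 9 weeks and formed 2 groups of 3 RNA sequencing libraries, CTX (cyclophosphamide, a DNA-alkylating anticancer drug known to damage follicles) and control. The labels give no dose, route, time after treatment or stage of the estrous cycle. They also do not tell whether each library is a different animal, so the spread behind each p-value may be technical.

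Endothelial cells line blood vessels. They are held together by junction proteins, sense growth factors and blood flow through receptors on their surface, and in hormone-producing glands form thin, pored capillaries through which hormones pass into the blood. In the ovary vessels grow and regress with each cycle: the theca around a follicle is vascular while the granulosa layer is not, and after ovulation vessels invade the forming corpus luteum, which becomes a densely vascular gland. Among the members, Cdh5 (VE-cadherin), Cldn5, Esam and Pecam1 act at contacts between endothelial cells, Tie1, Robo4 and Eng are cell-surface receptors or co-receptors, Egfl7 is secreted, Emcn is a surface mucin of capillaries and veins, and Plvap forms the diaphragms of endothelial pores.

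Levels are RPKM, reads scaled to exon length and library depth. The step between low values gave depths of about 18150000, 22150000 and 17050000 reads in CTX 1, 2 and 3, and 15800000, 16000000 and 16800000 in controls 1, 2 and 3. At these depths a member stood for about 194 reads (Plvap in control 1) to 2903 reads (Cdh5 in CTX 2). Counting alone then gives a relative error of about 1.86% for the deepest of these values and 7.18% for the shallowest, if reads are independent. The libraries differed in ovarian cell content in a way that crossed the groups. The mean log2(RPKM + 1) of luteal cell genes was 8.11, 6.14 and 6.13 in CTX 1, 2 and 3, and 7.79, 7.99 and 6.15 in controls 1, 2 and 3. Granulosa cell genes had 4.39, 6.82 and 6.81 in CTX 1, 2 and 3, and 5.53, 5.38 and 6.45 in controls 1, 2 and 3, and oocyte genes had 3.41, 5.16 and 5.15 in CTX and 4.05, 3.84 and 4.98 in control. CTX 1 and controls 1 and 2 were thus high in luteal and low in follicle genes, and CTX 2 and 3 and control 3 the reverse. All 9 luteal, 8 granulosa and 9 oocyte markers were above 0 in every library.

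In mm10 coordinates (GENCODE M21 on GRCm38) the members lie on 7 chromosomes. Pecam1 is on chromosome 11 (106654217 to 106750628, minus strand), Cldn5 on chromosome 16 (18776847 to 18778262, plus strand) and Tie1 on chromosome 4 (118471191 to 118490061, minus strand). Cdh5 (104101625 to 104144511, plus strand) and Plvap (71497765 to 71511752, minus strand) are on chromosome 8, and Robo4 (37401897 to 37415115) and Esam (37528078 to 37538319) are on the plus strand of chromosome 9. Eng (32646595 to 32682669) and Egfl7 (26580014 to 26593120) are on the plus strand of chromosome 2, and Emcn is on chromosome 3 (137341067 to 137432185, plus strand). Eng shares 61 exonic bases with Fpgs, and Egfl7 shares 64 with Agpat2, each on the opposite strand, and the labels do not say whether counting used strand. Egfl7 also contains the microRNA gene Mir126a, whose mature product is known as an endothelial microRNA, and shares 264 exonic bases with Gm20532 on its own strand. Mir126a and Gm20532 were listed at 0 in all 6 libraries, and a library made for long RNA is not built to capture mature microRNAs. Mature miR-126a-3p is shown because it is made from a member's own locus, with its seed (bases 2 to 8) in capitals, from RefSeq (GRCm38.p6, chr2:26591402-26591423, plus strand).
mmu-miR-126a-3p: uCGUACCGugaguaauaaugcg

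ETS transcription factors, whose binding sites hold the core GGAA, drive many endothelial genes. RefSeq start sites were available for 6 members. The stretches before the start of Emcn, Eng and Cldn5 are shown because these members differ in which libraries are high, as described below, and because their stretches lie before the starts given by both RefSeq and GENCODE. Capitals mark GGAA on either strand, which reads TTCC on the strand printed. Coordinates are GRCm38.p6, plus strand: chr3:137340828-137341066 for Emcn, chr2:32646345-32646594 for Eng and chr16:18776597-18776846 for Cldn5.
Emcn: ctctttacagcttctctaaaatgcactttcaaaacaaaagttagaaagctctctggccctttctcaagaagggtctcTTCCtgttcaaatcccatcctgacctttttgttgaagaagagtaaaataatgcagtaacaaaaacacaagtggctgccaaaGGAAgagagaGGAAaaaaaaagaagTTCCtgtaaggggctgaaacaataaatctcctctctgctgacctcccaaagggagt
Eng: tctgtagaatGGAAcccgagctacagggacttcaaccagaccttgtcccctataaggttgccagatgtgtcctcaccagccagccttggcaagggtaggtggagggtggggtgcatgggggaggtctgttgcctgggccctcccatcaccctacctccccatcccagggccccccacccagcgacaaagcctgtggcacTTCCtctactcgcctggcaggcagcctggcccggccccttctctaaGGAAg
Cldn5: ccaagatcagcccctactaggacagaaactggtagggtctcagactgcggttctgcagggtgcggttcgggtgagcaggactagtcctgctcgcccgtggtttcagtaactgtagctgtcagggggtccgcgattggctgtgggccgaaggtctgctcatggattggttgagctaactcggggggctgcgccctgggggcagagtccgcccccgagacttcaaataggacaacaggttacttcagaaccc

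GGAA occurred 4 times in the Emcn stretch, 3 times in that of Eng and 0 times in that of Cldn5. In the full 250 bases before the RefSeq start, 5 of 6 members with a window had it (Tie1 7 times and Robo4 3 times), where 93.4% of all 32851 RefSeq windows of that length hold it on either strand. The longer form CAGGAAG, searched on both strands and containing the core, was present before at least 1 start of Emcn, Egfl7 and Robo4, and in 10.8% of all windows. A further form, CCGGAAG, was in none of the members' windows and in 6.91% of all windows. These are matches of letters and not measured binding.

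The series asks what cyclophosphamide does to the ovarian transcriptome, and for the endothelial genes no difference between CTX and control passed the test. Of 10 members, 8 had a lower fitted level in CTX and 2, Plvap and Emcn, a higher one, where 51.2% of all tested genes had a negative difference. The median log2 difference, CTX minus control, was −0.23 over the members and −0.01 over all tested genes. The member median was −0.14 without CTX 3 and −0.29 without CTX 1. Some lists of other cells differed by as much or more in these libraries, with 0 genes called. Luteal genes were negative in 9 of 9 (median −0.31) and surface epithelium genes in 9 of 10 (−0.43). Oocyte genes were positive in 9 of 9 (0.32). Granulosa and leukocyte genes differed less, being negative in 4 of 8 (0.06) and in 7 of 11 (−0.06). The luteal median ran from −0.94 (without control 3) to −0.03 (without CTX 3) and the oocyte median from −0.03 (without CTX 3) to 0.88 (without CTX 1). The granulosa median ran from −0.13 (without CTX 2) to 1.03 (without CTX 1). That of surface epithelium moved less, from −0.51 (without control 2) to −0.33 (without control 1). In 5 of its 10 genes the groups were separate with CTX lower, each at a limma unadjusted p under 0.05. The part of cell content in the member differences was not tested. In limma 0 members were called higher and 0 lower at an adjusted p under 0.05 (background 0 and 0% of tested genes), and at an unadjusted p under 0.05 there were likewise 0 and 0 members (background 1.16% and 2.29%). Every CTX library was lower than every control library in 2 members, Tie1 and Robo4 (background 5.5%), and above them in 0 (background 3.32%). Without CTX 1, 9 members had a negative difference and 6 reached an unadjusted p under 0.05 (5 lower and Plvap higher), where 16.6% of all tested genes did, and still 0 were called (smallest limma adjusted p = 0.163). A lower level of the members was thus not established. Even if it were, fewer endothelial cells and less RNA per endothelial cell cannot be told apart in whole ovary.

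**Figure D1:**
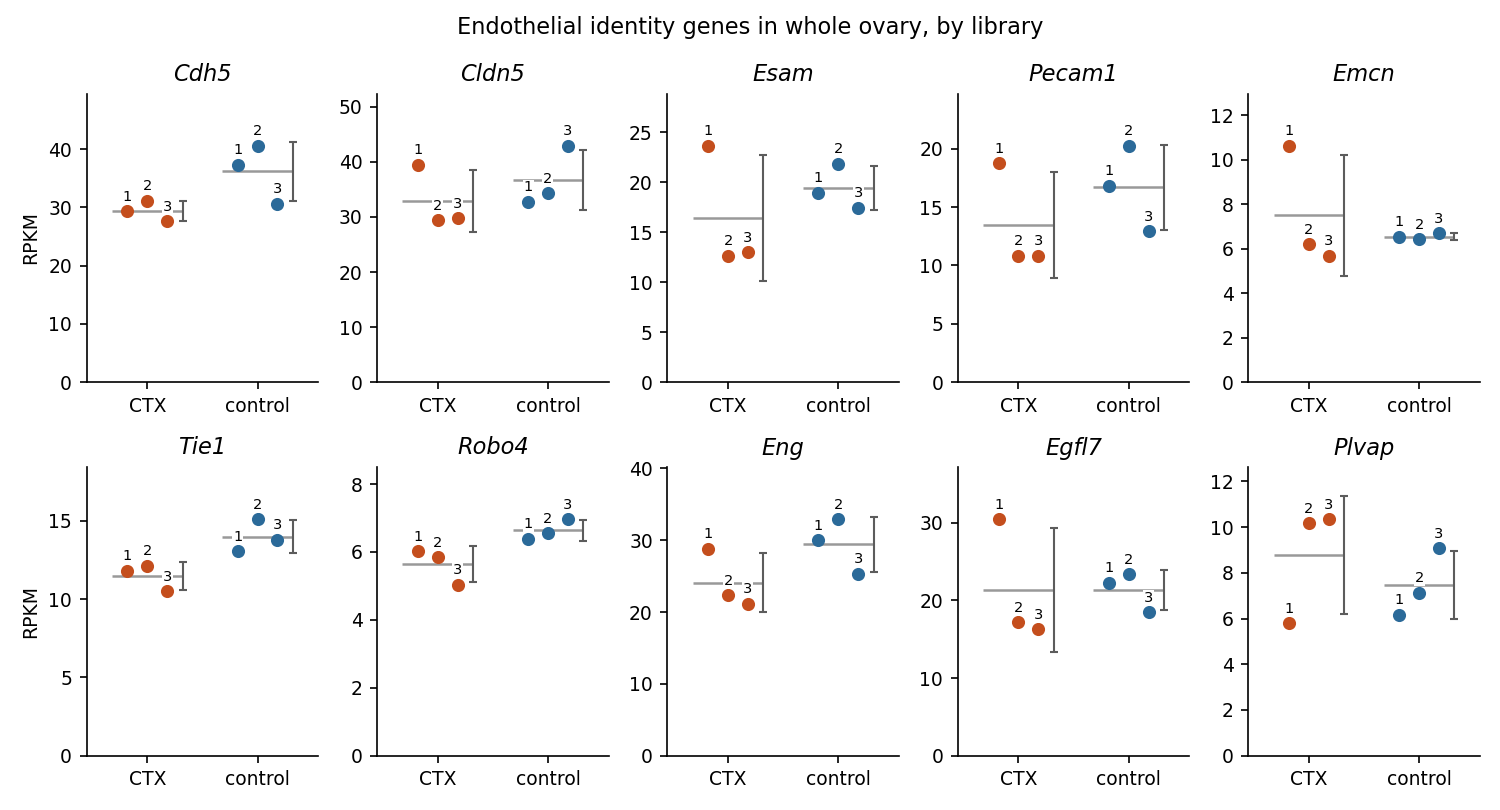
RPKM of the 10 endothelial identity genes (vertical axes, each from 0) in the 3 CTX and 3 control libraries; points are libraries with their replicate number, lines are group means and bars are SD. CTX lies wholly below control in Tie1 and Robo4, CTX 1 stands far above CTX 2 and 3 in Esam, Pecam1, Egfl7 and Emcn, and Plvap has the opposite order within CTX.

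Tie1 and Robo4 are receptors largely restricted to endothelium. Tie1, the orphan partner of the angiopoietin receptor Tek, had 11.8, 12.1 and 10.5 RPKM in CTX 1, 2 and 3, against 13.05, 15.1 and 13.8 in controls 1, 2 and 3. Its groups did not overlap, and the gap between the highest CTX library and the lowest control library was smaller than the range within control. The means were 11.5 ± 0.868 RPKM in CTX and 14.0 ± 1.04 in control (SD, n = 3 each here and below), a log2 difference of −0.26 ± 0.11 (SE; 95% interval −0.54 to 0.01). Robo4, a roundabout receptor that stabilises vessels, had 6.03, 5.85 and 5.04 RPKM in CTX 1, 2 and 3, against 6.39, 6.55 and 6.97 in controls 1, 2 and 3. Its groups did not overlap either, with means of 5.64 ± 0.527 RPKM in CTX and 6.64 ± 0.300 in control. The log2 difference was −0.20 ± 0.12 (95% interval −0.49 to 0.08). Again the gap between the groups was smaller than the range within control. The libraries on either side of it, CTX 1 and control 1, stood for about 580 and 535 reads. Counting error is not small beside that gap. In both genes CTX 3 was lowest and CTX 1 lay close to CTX 2. They are set apart here because their groups did not overlap. That CTX 1 lay below all controls with CTX 2 and 3 follows from this choice. For both genes, as for every member, the limma adjusted p was 1.00, and the unadjusted p was 0.057 for Tie1 and 0.128 for Robo4.

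Eng, a co-receptor for BMP and TGF-beta ligands that is also made by some stromal cells and macrophages, had 28.8, 22.35 and 21.15 RPKM in CTX 1, 2 and 3, against 30.0, 32.9 and 25.4 in controls 1, 2 and 3. CTX 1 lay within the control range, above control 3, while CTX 2 and 3 lay below every control. Its log2 difference was −0.28 ± 0.16 (95% interval −0.67 to 0.11; 24.1 ± 4.11 RPKM in CTX and 29.4 ± 3.82 in control).

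Of the junction genes, Cdh5, the adhesion protein of endothelial adherens junctions, was closest to a separation of the groups. It had 29.35, 31.2 and 27.6 RPKM in CTX 1, 2 and 3, against 37.3, 40.6 and 30.6 in controls 1, 2 and 3. The groups overlapped only in CTX 2 and control 3, whose values differed by little, and CTX 1 was not raised. The means were 29.4 ± 1.79 RPKM in CTX and 36.2 ± 5.10 in control, with a log2 difference of −0.28 ± 0.14 (95% interval −0.61 to 0.04; unadjusted p = 0.0785, limma adjusted p = 1.00).

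Pecam1, an adhesion molecule of endothelium that platelets and many leukocytes also carry, had 18.7, 10.85 and 10.8 RPKM in CTX 1, 2 and 3, against 16.8, 20.3 and 12.9 in controls 1, 2 and 3. Esam, an immunoglobulin-like adhesion molecule of tight junctions that platelets also carry, had 23.7, 12.6 and 13.0 RPKM in CTX and 19.0, 21.85 and 17.5 in control. CTX 1 lay between controls 1 and 2 for Pecam1 and above all controls for Esam, and CTX 2 and 3 lay below all controls for both, so the groups overlapped through CTX 1. The log2 differences were −0.31 ± 0.26 for Pecam1 (95% interval −0.93 to 0.31) and −0.28 ± 0.25 for Esam (95% interval −0.88 to 0.32). Their point estimates were at least as low as that of Tie1, with larger standard errors.

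Cldn5, the main claudin of endothelial tight junctions, followed another order. It had 39.45, 29.4 and 29.75 RPKM in CTX 1, 2 and 3, against 32.7, 34.4 and 43.0 in controls 1, 2 and 3. The 2 highest libraries were control 3 and CTX 1, which stood on opposite sides in luteal and follicle genes. The log2 difference was −0.16 ± 0.17 (95% interval −0.56 to 0.25).

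Egfl7, a secreted matrix protein of endothelium, and Emcn, the mucin endomucin, had their highest level in CTX 1. Egfl7 had 30.5, 17.2 and 16.3 RPKM in CTX 1, 2 and 3, against 22.3, 23.4 and 18.5 in controls 1, 2 and 3, and its group means were 21.3 ± 7.96 RPKM in CTX and 21.4 ± 2.57 in control (log2 difference −0.05 ± 0.25; 95% interval −0.66 to 0.55). CTX 1 lay above all controls and CTX 2 and 3 below all controls. Agpat2, the antisense neighbour that overlaps Egfl7, was also highest in CTX 1, with 14.6, 10.1 and 9.30 RPKM in CTX and 9.44, 9.67 and 8.69 in control, and its part in the Egfl7 value was not tested. Emcn had 10.6, 6.20 and 5.69 RPKM in CTX 1, 2 and 3, against 6.53, 6.41 and 6.69 in controls 1, 2 and 3. Control levels of Emcn had the smallest SD of the members (0.140 RPKM). CTX 1 stood above them, CTX 3 below and CTX 2 slightly below. The controls stood for about 558, 555 and 608 reads. At such counts both their SD and the gap between CTX 2 and control 2 are within counting error. The log2 difference of Emcn was 0.13 ± 0.22 (95% interval −0.41 to 0.66) and turned to −0.12 without CTX 1.

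Plvap, which builds the diaphragms of fenestrated and transporting capillaries, ran against the rest. It had 5.80, 10.2 and 10.35 RPKM in CTX 1, 2 and 3, against 6.17, 7.13 and 9.07 in controls 1, 2 and 3. CTX 2 and 3 were above all controls, CTX 1 was below them, and control 3 was the highest control. The log2 difference was 0.19 ± 0.24 (95% interval −0.40 to 0.77; 8.78 ± 2.58 RPKM in CTX and 7.46 ± 1.48 in control). Plvap was therefore higher in the libraries with more granulosa and oocyte RNA and lower in those with more luteal RNA. Adipocyte genes divided the libraries in the same way. Their mean log2(RPKM + 1) was 0.91, 4.54 and 4.47 in CTX 1, 2 and 3, and 1.19, 0.66 and 3.96 in controls 1, 2 and 3. The part of any of these cell contents in the Plvap pattern was not tested.

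**Figure D2:**
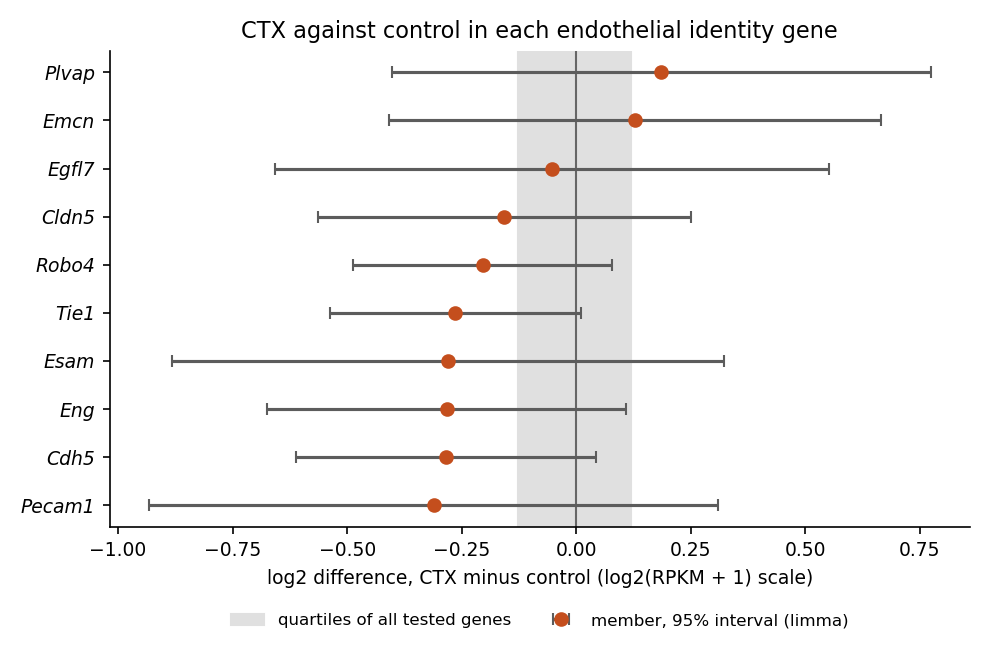
Log2 difference, CTX minus control, for each member on the log2(RPKM + 1) scale (horizontal axis), with 95% intervals from limma; the grey band spans the quartiles of all 14535 tested genes (−0.13 to 0.12). Every interval includes 0, and those of Pecam1, Esam, Egfl7 and Plvap are wide.

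Per length, the members covered a range from Cldn5 (34.8 ± 5.42 RPKM over the 6 libraries) and Cdh5 (32.8 ± 5.06) through Eng (26.8 ± 4.60), Egfl7 (21.3 ± 5.29), Esam (17.9 ± 4.51), Pecam1 (15.1 ± 4.10) and Tie1 (12.7 ± 1.62) to Plvap (8.12 ± 2.01), Emcn (7.03 ± 1.80) and Robo4 (6.14 ± 0.667). Cldn5 exceeded Cdh5 in 3 of 6 libraries, so their order is not set. Cdh5 exceeded Eng, Egfl7 exceeded Esam, Esam exceeded Pecam1 and Tie1 exceeded Plvap in 6 of 6 libraries. Eng exceeded Egfl7 in 5 of 6, with the exception of CTX 1, and Pecam1 over Tie1, Plvap over Emcn and Emcn over Robo4 held in 4 of 6. By mean level the members stood between the 39.8th and the 87.9th percentile of the tested genes.

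Summed over the members, RPKM were 204.8, 158 and 150.2 in CTX 1, 2 and 3, and 190.3, 208.6 and 184.3 in controls 1, 2 and 3. CTX 2 and 3 were thus below all controls, and CTX 1 lay between controls 1 and 2. CTX 3 was the lowest library for 7 of 10 members and CTX 2 for 2, and control 2 was the highest for 4 and CTX 1 for 3. The coefficient of variation over all 6 libraries ran from 10.9% (Robo4) and 12.7% (Tie1) to 27.2% (Pecam1), with a median of 21.0% over the members and 18.7% over all tested genes. Cdh5 (15.4%), Cldn5 (15.6%) and Eng (17.2%) varied less than Plvap (24.8%), Egfl7 (24.8%), Esam (25.2%) and Emcn (25.6%).

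**Figure D3:**
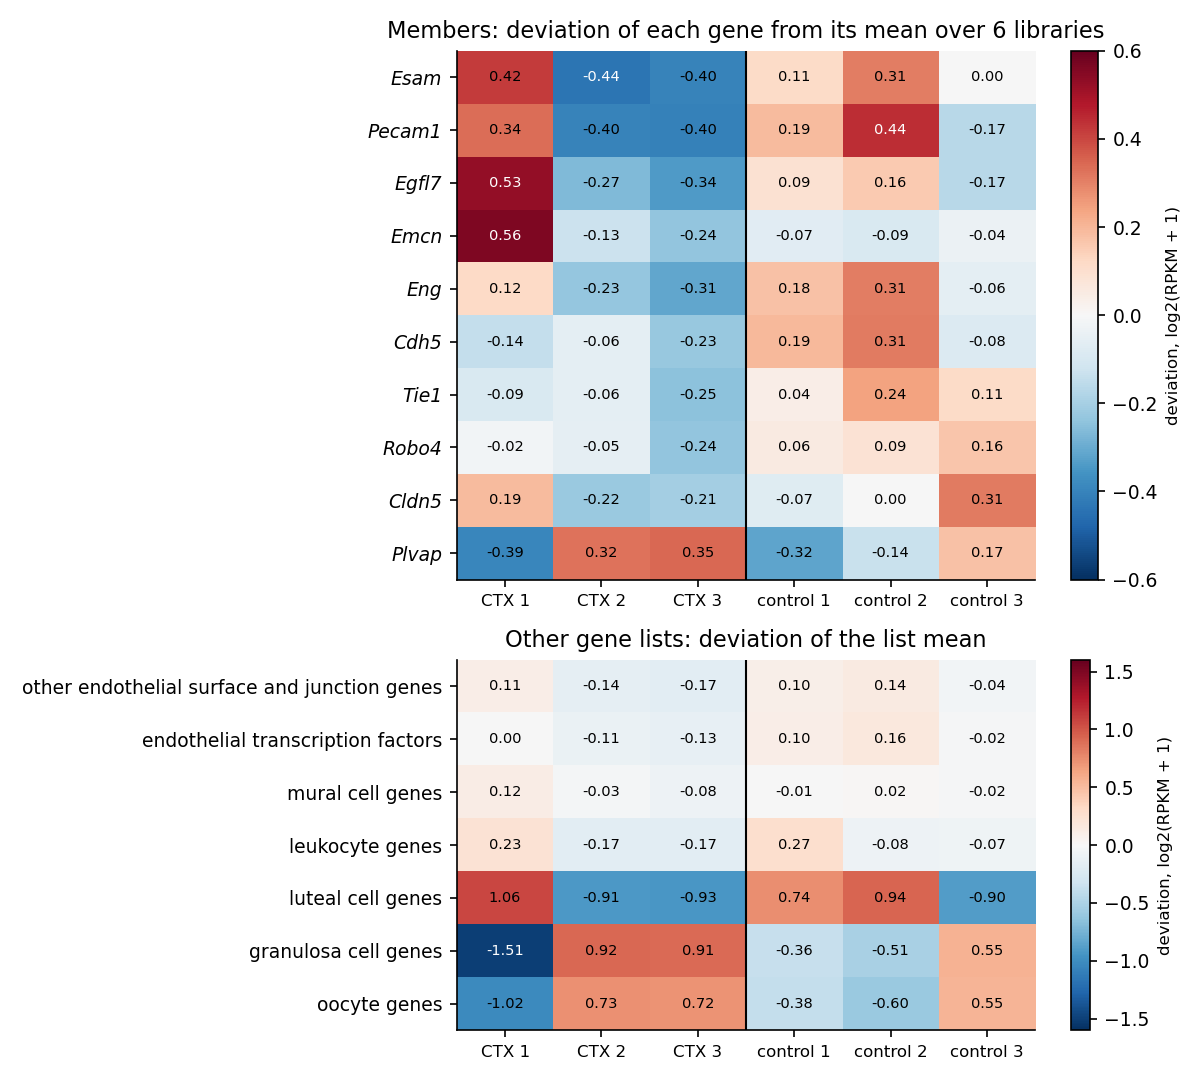
Deviation of log2(RPKM + 1) from its mean over the 6 libraries (colour and printed value) for each member (top) and for the mean of other gene lists (bottom, on a wider colour scale); columns are the 3 CTX and then the 3 control libraries. Esam, Pecam1, Egfl7 and Emcn are high in CTX 1 and low in CTX 2 and 3, as luteal cell genes are. In control 3, where luteal genes are low, Esam and Emcn lie near their means. Emcn is also slightly below its mean in controls 1 and 2 (−0.07 and −0.09), where luteal genes are high. Plvap follows granulosa and oocyte genes, and Tie1 and Robo4 divide by group with small deviations.

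A wider set of endothelial genes, listed without reference to how they moved but with earlier results of these data known, is given for context. Of 32 other surface and junction genes 30 were tested, and 23 had a negative and 7 a positive difference, with a median of −0.16; 0 were called higher and 0 lower. All CTX libraries lay below all controls in 6 (Tek, Mmrn2, Ushbp1, Calcrl, Ptprb and Palmd) and above them in 1 (Acvrl1), of 30 tested and all named after their values were seen (background 5.5% below and 3.32% above). Tek, the angiopoietin receptor that Tie1 partners, had 7.23, 6.39 and 6.62 RPKM in CTX 1, 2 and 3, against 9.22, 8.72 and 8.34 in controls 1, 2 and 3 (log2 difference −0.33 ± 0.11, unadjusted p = 0.0202, limma adjusted p = 1.00). Ptprb, the phosphatase that acts on Tek and Cdh5, had 4.86, 4.69 and 4.95 RPKM in CTX and 6.44, 6.11 and 5.55 in control (log2 difference −0.27 ± 0.11). Tek and Ptprb were picked from the genes with all CTX libraries below all controls. That CTX 1 lay with CTX 2 and 3 in them, as in Tie1 and Robo4, follows from this pick.

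The 3 most abundant of these genes overlapped between the groups. Mcam, also a marker of pericytes, had 46.6, 28.9 and 26.85 RPKM in CTX 1, 2 and 3, against 36.3, 39.1 and 27.1 in controls 1, 2 and 3. Cd93, a receptor of endothelium and myeloid cells, had 20.2, 14.0 and 13.1 RPKM in CTX and 24.25, 24.5 and 15.35 in control. Cd34, a sialomucin of endothelium and of some stromal cells, had 20.1, 16.8 and 17.4 RPKM in CTX and 18.25, 18.9 and 15.6 in control. Mcam and Cd93 were low in control 3 as well as in CTX 2 and 3. The list mean of log2(RPKM + 1) was 3.11, 2.86 and 2.83 in CTX 1, 2 and 3, and 3.10, 3.14 and 2.96 in controls 1, 2 and 3.

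All 16 tested endothelial transcription factor genes had a negative difference, with a median of −0.15, but 0 passed the limma test in either direction, and the count with a negative difference was 15 after quantile normalization and 13 to 16 with each library left out in turn. Their median was −0.10 without control 2 and −0.24 without control 3. The 17th, Etv2, a factor of the embryonic endothelium, was listed at 0 in all libraries. Erg, an ETS factor that maintains endothelial identity and acts on Cdh5, had 5.44, 5.27 and 4.70 RPKM in CTX 1, 2 and 3, against 6.65, 7.02 and 6.01 in controls 1, 2 and 3 (log2 difference −0.30 ± 0.12, unadjusted p = 0.0424, limma adjusted p = 1.00). Sox17, a factor of arterial endothelium, had 3.28, 3.45 and 3.69 RPKM in CTX and 4.16, 4.59 and 4.93 in control (log2 difference −0.31 ± 0.12). In both, named after their values were seen, all CTX libraries lay below all controls, as they did in Lyl1 and Hhex, which makes 4 of 16 (background 5.5%). The most abundant factors showed smaller differences: Sox18 had 30.4, 36.6 and 32.25 RPKM in CTX and 32.6, 36.6 and 33.0 in control, Klf2, a gene induced by blood flow, had 15.6, 15.8 and 15.05 in CTX and 15.8, 19.3 and 17.6 in control, and Ets2, which is widely expressed, had 18.0, 25.2 and 25.9 in CTX and 22.5, 21.9 and 24.6 in control.

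**Figure D4:**
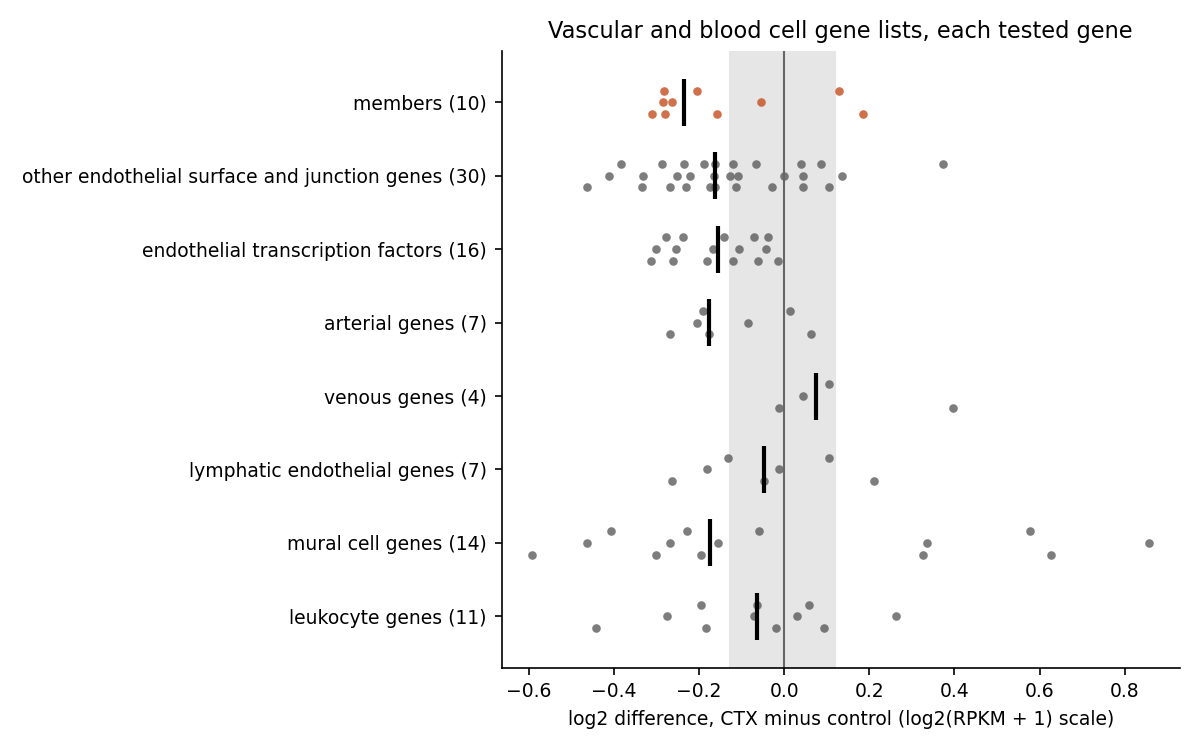
Log2 difference, CTX minus control, on the log2(RPKM + 1) scale (horizontal axis) for each tested gene of the members and of 7 vascular and blood cell lists; black bars are list medians, numbers in brackets count tested genes and the grey band spans the quartiles of all tested genes. The medians of the members, the other endothelial genes and the endothelial transcription factors are −0.23, −0.16 and −0.15, and mural genes spread to both sides.

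In lists of particular vessel types no gene was called. The most abundant gene of each was high in CTX 2 and 3 and control 3, but other genes of these lists were not. Arterial genes had 5 of 7 tested members negative (median −0.18), and Sema3g, the most abundant, had 6.52, 25.2 and 24.1 RPKM in CTX 1, 2 and 3, against 14.8, 11.6 and 28.6 in controls 1, 2 and 3. Hey2 (4.63, 15.9 and 15.1 RPKM in CTX, and 7.66, 7.14 and 18.0 in control) was high and low in the same libraries. These are also the 3 highest and 3 lowest for Plvap and for granulosa and adipocyte genes. Other genes of the arterial and venous lists went another way, of which Dll4 and Efnb2 are named after their values were seen. Dll4, a Notch ligand of arterial and sprouting endothelium, had 5.45, 3.30 and 3.14 RPKM in CTX and 5.43, 4.97 and 3.57 in control, and Efnb2, an arterial ephrin, had 7.29, 5.90 and 6.31 in CTX and 8.32, 9.36 and 6.56 in control. Aplnr, the apelin receptor and among the 3 most abundant venous genes, was highest in CTX 1. It had 18.3, 15.7 and 14.3 RPKM in CTX and 14.9, 13.6 and 16.1 in control. Venous genes had 3 of 4 tested members positive (median 0.07; 2 of 4 without control 1, CTX 2 or CTX 3), and Nr2f2, a venous factor that ovarian stroma also expresses, had 25.9, 37.2 and 38.7 RPKM in CTX and 28.5, 29.55 and 45.25 in control. Lymphatic genes had 5 of 7 tested rows negative (median −0.05), and Ccl21a, a chemokine of lymphatic vessels, had 50.2, 101.4 and 104.35 RPKM in CTX and 82.7, 64.5 and 102.1 in control. Without CTX 1, 6 of the 7 lymphatic rows were positive, so their direction rests on that library.

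Mural cells, the pericytes and smooth muscle cells around vessels, had 9 of 14 members negative and 5 positive (median −0.17), with 0 called. Without CTX 3 they were 7 negative and 7 positive (median −0.05), and the median was −0.08 without CTX 2 and −0.11 without control 2. The 5 positive genes are contractile or cytoskeletal genes of smooth muscle: Acta2 had 342.5, 452.9 and 417.3 RPKM in CTX 1, 2 and 3, against 227.3, 230.2 and 371.4 in controls 1, 2 and 3, and Tagln had 212, 204.4 and 185.1 in CTX and 146.7, 138.7 and 199.7 in control. Pericyte genes among the 9, named after their values were seen, included Rgs5 with 41.6, 19.7 and 21.2 RPKM in CTX and 44.9, 44.6 and 31.0 in control, and Pdgfrb with 24.5, 26.2 and 21.7 in CTX and 26.6, 30.3 and 26.3 in control. All CTX libraries lay below all controls in 2 of the 14, Pdgfrb and Vtn (background 5.5%).

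Blood cells can carry Pecam1 and Esam. Of 9 platelet genes 2 passed the filter, 4 were at 0 in at least 1 library, and their summed level was 7.74 to 12.5 RPKM in CTX and 9.57 to 10.5 in control. Most of that sum was Pf4, which some macrophages also make, with 10.55, 5.66 and 6.76 RPKM in CTX and 8.45, 6.90 and 7.60 in control, and Itga2b, the platelet integrin, had 0.75 to 1.15 RPKM in CTX and 0.81 to 1.05 in control. Of 12 leukocyte genes 11 were tested, 7 of them negative and 4 positive (median −0.06, 0 called). That direction rests on single libraries: all 11 were negative without CTX 1 (median −0.17), 4 without control 1 (0.11), and 5 without CTX 2 (0.02) or CTX 3 (0.03). Their summed level was 283.9, 184.4 and 180.8 RPKM in CTX 1, 2 and 3, and 256.7, 210.2 and 209.75 in controls 1, 2 and 3. By this sum CTX 1 was highest and CTX 2 and 3 lowest, as in Esam and Egfl7. By the mean log2(RPKM + 1) of the tested genes control 1 was highest, with 4.16 against 4.12 in CTX 1. Csf1r, named after its values were seen, was lowest in CTX 1. It had 7.54, 9.29 and 8.73 RPKM in CTX and 12.55, 10.94 and 12.21 in control. Its CTX libraries all lay below all controls, which makes 1 of 11 (background 5.5%). The part of leukocytes in the Pecam1 values was not tested.

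The 4 tested genes outside the list whose deviations over the 6 libraries came closest to the mean deviation of the members were Chrnb1, Kcnj8, Cyb5d2 and Trappc6b, at a root mean square distance of 0.03 to 0.04 on the log2 scale. Kcnj8, which encodes a potassium channel subunit of pericytes and is on the mural list, had 6.02, 4.55 and 4.38 RPKM in CTX 1, 2 and 3, against 5.77, 6.51 and 5.61 in controls 1, 2 and 3. Among the members themselves, Eng (0.11) and Robo4 (0.11) lay closest to the mean of the other 9 and Plvap (0.47) farthest.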

How the data were processed

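Each library's table, as the authors deposited it, holds 1 value per gene, taken here as RPKM rounded to 2 decimals. No header names the unit: for short genes (up to 1000 exonic bases in GENCODE M21, which matched 98.0% of identifiers), low values (up to 15 reads) times length were whole multiples of a fixed step, to a tolerance of 0.2 reads, in 97.1 to 97.5% of cases, and the step gave the depth. The submitters' processing notes name Bowtie 0.12.2 and mm10; counter, annotation, filters and strand use are not given there.

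The filter kept genes that reached an RPKM of 1 in 3 or more of the 6 libraries. The comparison used limma 3.58.1 under R 4.3.3 on log2(RPKM + 1) with a mean-variance trend, two-sided, with Benjamini-Hochberg adjustment over all tested genes and calls at 0.05; differences of low genes are understated on this scale. The code was tested on simulated data. The closest pair of libraries, controls 1 and 2, had a mean chi-square of 3.18 per short gene, where sampling noise gives about 1, so all 6 were kept as separate.

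The members and lists were chosen with earlier results of these data known. The naming rule took all members, called genes and the 3 most abundant genes of each list, and the 4 genes nearest to the members' pattern. In the vessel type and mural lists it also took Gja4, Ephb4, Pdpn, Mmrn1 and Myh11, which are not described above. Values of lists outside the vessel are mostly given as means or sums. Genes named after their values were seen are marked. Of the lists given for cell content, adipocyte and erythroid genes had medians of 1.21 (0.69 without control 2 to 2.19 without CTX 1) and 1.02 (0.72 without CTX 2 to 1.55 without CTX 1), with 0 genes called. Same-numbered libraries were checked for pairing, which the check could not exclude, and were treated as unpaired.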

Additional observations from a re-analysis of the deposited data

How the results depend on the processing

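In all 14 alternatives 0 members were called higher and 0 lower in limma. Over all genes 0 were called in either direction, except that the counts with each library left out in turn ran from 0 to 2 higher and 0 to 3 lower, with calls only without CTX 1. The filters, the fit without trend and the replicate block leave a fitted difference as it is by construction; under the other pseudocounts, the scalings and the left-out libraries the direction of 8 members held. The exceptions were Emcn, whose log2 difference ran from −0.12 (without CTX 1) to 0.28 (without CTX 3), and Egfl7, which ran from −0.33 (without CTX 1) to 0.10 (without CTX 3) and was also positive without control 2 or CTX 2; neither turned under another pseudocount or scaling. Leaving out 1 library moved Esam between −0.56 (without CTX 1) and −0.13 (without CTX 2), Pecam1 between −0.56 (without CTX 1) and −0.17 (without control 2), Cldn5 between −0.29 (without CTX 1) and −0.04 (without control 3) and Plvap between 0.06 (without CTX 3) and 0.43 (without CTX 1). Tie1 (−0.31 to −0.21), Robo4 (−0.25 to −0.14), Cdh5 (−0.40 to −0.20) and Eng (−0.41 to −0.20) moved less. The member median was −0.23 with trimmed-mean scaling and −0.24 after quantile normalization, and ran from −0.29 (without CTX 1) to −0.14 (without CTX 3) with 1 library left out. Deviations of same-numbered libraries correlated at 0.40, −0.54 and 0.60 for numbers 1, 2 and 3. Libraries of unlike number correlated as highly, at 0.61 for control 2 with CTX 1 and 0.60 for control 3 with CTX 2. These values thus gave no sign that equal numbers pair the libraries, but they cannot exclude it. With the replicate number as a block 0 genes were called. The SE of the Tie1 difference (−0.26 in either fit) was then 0.14 and its limma unadjusted p 0.115. RPKM keep no exact counts of long genes, and with 3 libraries a group the 95% intervals of the members still include log2 differences of up to −0.93 (Pecam1) and 0.77 (Plvap).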

Other observations

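Ratios between members within a library do not change when a library is scaled by 1 factor. Relative to Cdh5, the level of Plvap was 0.198, 0.326 and 0.375 in CTX 1, 2 and 3, and 0.165, 0.175 and 0.296 in controls 1, 2 and 3. For Emcn the ratio to Cdh5 was 0.362, 0.199 and 0.206 in CTX, and 0.175, 0.158 and 0.218 in control, and for Egfl7 it was 1.04, 0.551 and 0.589 in CTX, and 0.597, 0.575 and 0.603 in control. Emcn, Egfl7 and Esam (0.806 in CTX 1 and 0.405 to 0.570 in the other 5 libraries) were high relative to Cdh5 in CTX 1. Cldn5 relative to Cdh5 was 1.34, 0.944 and 1.08 in CTX, and 0.877, 0.846 and 1.40 in control. Cdh5 itself lay below its mean over all libraries in CTX 1 (log2 deviation −0.14). High ratios in CTX 1 are therefore not particular to the numerator genes. Pecam1 and Eng were not set against Cdh5. Tie1 relative to Cdh5 was 0.403, 0.389 and 0.380 in CTX, and 0.350, 0.372 and 0.450 in control, and Robo4 was 0.205, 0.188 and 0.183 in CTX, and 0.171, 0.161 and 0.228 in control. For these 2 receptors the groups overlapped in the ratio, whereas they did not in RPKM. Cdh5 itself had a lower mean in CTX (29.4 RPKM, against 36.2 in control). The ratio therefore takes out any group difference that a gene shares with Cdh5. With trimmed-mean scaling of the libraries the log2 difference of Tie1 was −0.26.

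Some further endothelial genes, picked after their values were seen, stood out by library. Nos3, the endothelial nitric oxide synthase gene, had 10.1, 4.79 and 5.01 RPKM in CTX 1, 2 and 3, and 10.2, 10.25 and 5.82 in controls 1, 2 and 3. Icam2, an adhesion molecule of endothelium and platelets, had 14.7, 4.17 and 4.35 RPKM in CTX and 10.4, 10.7 and 5.50 in control. Jam2, a junctional adhesion molecule, had the reverse order, with 5.14, 20.8 and 20.8 RPKM in CTX and 12.5, 12.7 and 27.8 in control. Acvrl1, the BMP receptor that works with Eng, was the only other endothelial surface gene with all CTX libraries above all controls, at 8.01 to 8.19 RPKM in CTX and 7.11 to 7.94 in control (limma adjusted p = 1.00).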
